A study of Homo sapiens with 8 samples.

Results

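Interferon signalling and response genes were followed as a group of 45 named genes, chosen by symbol, in the human colon cancer line HCT116. Of these, 44 had a probe set of their own among the 18417 genes tested. STAT2 was not analysed here. The members were chosen with earlier results of these data known, so their shares beside those of all genes are descriptive only. All cells expressed a short hairpin RNA, either a control hairpin (shControl) or a hairpin against CDK8 (shCDK8), a kinase of Mediator, which connects DNA-bound transcription factors with the polymerase that makes messenger RNA. Cells of both kinds were grown without serum for 40 h and were then harvested, or were first given medium with 10% fetal bovine serum for 30 min. This gave 4 groups of 2 Affymetrix arrays, 8 arrays in all: starved shControl, serum-treated shControl, starved shCDK8 and serum-treated shCDK8. None of the labels mentions an interferon or a virus among the treatments.

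Interferons are secreted proteins that bind paired receptor chains at the cell surface; type I interferons use IFNAR1 with IFNAR2, and interferon gamma uses IFNGR1 with IFNGR2. The type I receptor activates the kinases JAK1 and TYK2, which phosphorylate STAT proteins. These STAT proteins join the DNA-binding protein IRF9 and bind interferon-stimulated response elements (ISREs) in promoters. The genes so induced encode sensors of foreign RNA, proteins that block viral entry or translation, the ubiquitin-like protein ISG15 with its enzymes, and many of the pathway's own components. Cultured tumour cells express many of them at a basal level without added interferon.

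The line difference of these genes ran in both directions. Averaged over both times, 12 of the 44 genes were higher in shCDK8 cells and 7 were lower, at an adjusted p below 0.05 from limma, while 25 did not pass. These are 27.3% and 15.9% of the members, where 12% of all genes were higher and 11.3% lower, so the share that was lower was near that of all genes. The antiviral protein genes IFIT1 (1.53-fold) and IFI44 (1.52-fold, but dim, below the 25th percentile of all genes) had the largest rises. IFITM1, an inhibitor of viral entry, had the largest fall in shCDK8 cells (1.66-fold). IRF9 was higher and IFNAR1 lower in the same cells. After 30 min of serum no member passed in either line alone (0 of 44 in each with limma). At an unadjusted p below 0.05 limma gave 6 members in shControl and 9 in shCDK8 cells. Of all 18417 genes, 1662 and 1766 were below it. Over both lines ISG15 (1.57-fold) and DDX60 (1.22-fold) passed as higher, against 0.76% of all genes, but ISG15 was lost in 5 and DDX60 in 7 of 8 fits that left out an array, and DDX60 also with the replicate number as a block (adjusted p = 0.0627).

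The promoter sequences below show the interferon-stimulated response element in 5 members that passed the threshold at both times, 3 higher and 2 lower in shCDK8 cells. Each is printed on the strand of its gene, 5′ to 3′, from 30 bases before the first match. It ends 30 bases after the last match, or at the start site where that comes first. A match that crosses the start site is printed to its end. The windows come from RefSeq promoters of build GRCh38.p14. Capitals mark the letters GAAA, any 2 bases and GAAA again, on either strand, so that a match on the other strand reads as TTTC, 2 bases and TTTC; matches may overlap each other. First come the 3 members that were higher in shCDK8 cells.
IFIT1, chr10:89392477-89392559, plus strand: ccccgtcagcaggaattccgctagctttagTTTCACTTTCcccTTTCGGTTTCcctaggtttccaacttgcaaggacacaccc
IFI44, chr1:78649741-78649788, plus strand: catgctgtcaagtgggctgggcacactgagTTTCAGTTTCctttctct
IFIH1, chr2:162318685-162318873, minus strand: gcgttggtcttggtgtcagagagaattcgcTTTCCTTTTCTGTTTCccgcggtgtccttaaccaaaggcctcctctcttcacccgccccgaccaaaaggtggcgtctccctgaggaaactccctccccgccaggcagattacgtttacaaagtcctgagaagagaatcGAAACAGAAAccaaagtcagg
The next 2 members were lower in shCDK8 cells.
DDX60, chr4:168318766-168318870, minus strand: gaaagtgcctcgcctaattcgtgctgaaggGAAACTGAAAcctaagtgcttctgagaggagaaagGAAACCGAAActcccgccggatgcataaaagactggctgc
IFITM1, chr11:313970-314043, plus strand: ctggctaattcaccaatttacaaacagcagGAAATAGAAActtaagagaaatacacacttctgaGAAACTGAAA

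The matches began 116 and 103 bases before the start site in IFIT1, 18 in IFI44, 159, 153 and 21 in IFIH1, 88 and 53 in DDX60, and 40 and 6 in IFITM1. RefSeq promoters of 300 bases (250 before the start site and 50 after it) were at hand for 34 of the 44 members. The letters were in 20 of these 34 promoters (58.8%) and in 996 of all 27305 promoters of that length (3.65%). They were in 6 of the 9 promoters of members that were higher in shCDK8 cells on average, 4 of the 7 of members that were lower and 10 of the 18 of members that did not pass. The element was thus present among members called in either direction and among those that did not pass. The shorter element TTCNNNGAA, read by STAT dimers and searched over the same windows (its letters read alike on both strands), was in 9 of 34 member promoters (26.5%) and in 2152 of all promoters (7.88%). A match describes the letters of a window and says nothing of binding in these cells.

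The values were log2 signals, so a change of 1 is a doubling, and n was 2 arrays in each group. Duplicate arrays correlated across genes with r of 0.997 to 0.998. Among the 44 members the median difference between duplicates was 0.14 in starved shControl cells and 0.07 to 0.09 in the other 3 groups, against 0.07 to 0.09 for all genes in the 4 groups; the widest was 0.48, for ISG15 in serum-treated shControl cells. The probe set of the targeted gene, which the annotation pairs with CDK8 and 1 other gene, read 9.22 ± 0.02 (SD) and 9.20 ± 0.02 in starved and serum-treated shControl cells and 7.04 ± 0.07 and 7.05 ± 0.01 in the same shCDK8 groups, or 4.53-fold and 4.45-fold lower. Each line carried a single hairpin, so the knockdown and any other difference between the lines cannot be told apart. The labels do not say whether duplicates were separate cultures, and p-values then rest on sample-to-sample spread that may be purely technical. In RNA from whole cultures, a change in some cells and a smaller change in every cell cannot be told apart.

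In starved cells, 13 of 44 members (29.5%) differed between the lines, 7 higher and 6 lower in shCDK8 cells, where 13.4% of all genes did (7.13% higher and 6.28% lower). After serum, 14 (31.8%) differed, 10 higher and 4 lower, against 14.2% of all genes (7.7% higher and 6.54% lower). The average of both times called 19 (43.2%), against 23.3% of all genes (12% higher and 11.3% lower). The members' median change on average was 0.03, beside -0.01 for all genes, and their median absolute change was 0.16, beside 0.08 for all genes. The members' median thus lay close to that of all genes. By direction, the share of members called higher exceeded that of all genes more than the share called lower did, at 27.3% against 12% and 15.9% against 11.3%; no test of this difference was made. Of the 19 called members, 3 differed by 1.5-fold or more (IFIT1, IFI44 and IFITM1). Among all 18417 genes, 535 were called and differed by that much. No member passed a test against a minimum change of 1.5-fold, which 1.24% of all genes did on average.

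**Figure D1:**
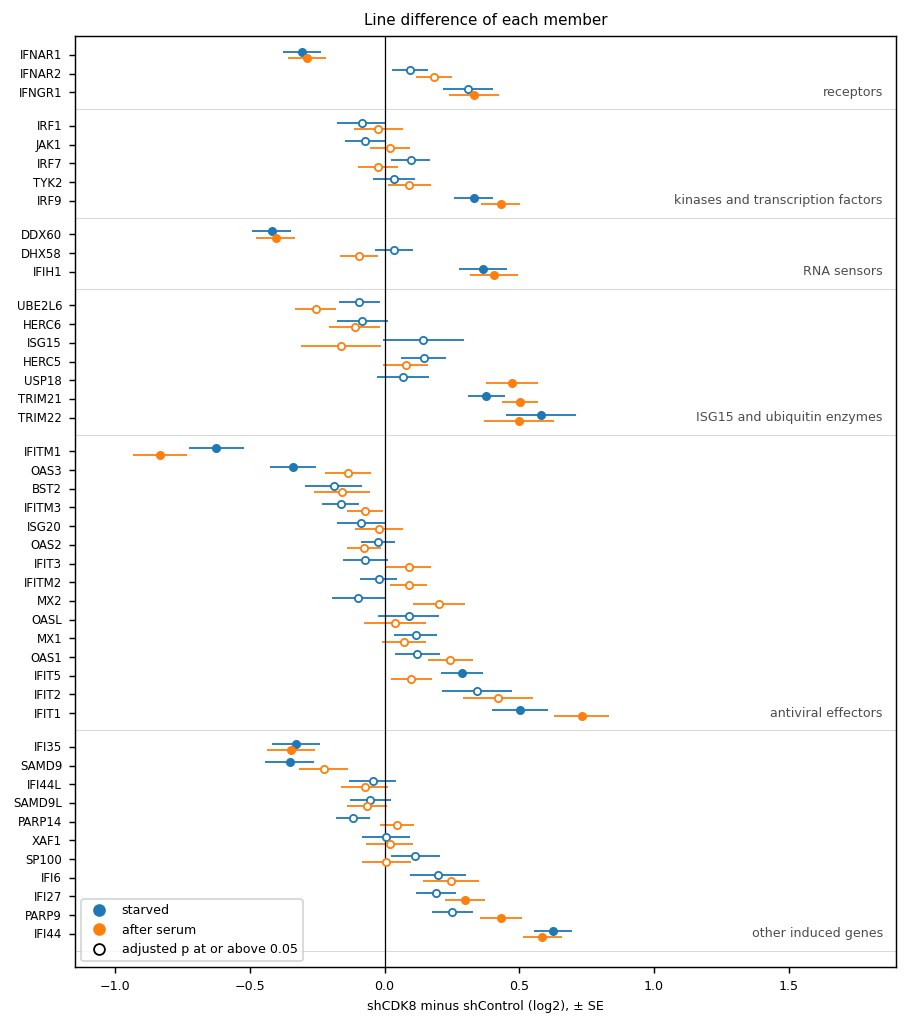
Log2 difference between shCDK8 and shControl cells for each of the 44 genes, grouped by role, in starved cells (blue) and after 30 min of serum (orange). Points are model estimates from 2 arrays a group, bars are standard errors, and filled points passed an adjusted p below 0.05; IFIT1, IFI44, TRIM21 and TRIM22 lie to the right at both times, and IFITM1 and DDX60 to the left.

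The sign of the line difference was the same at both times in 36 of 44 members. At both times 6 were higher in shCDK8 cells (IRF9, IFIT1, IFI44, IFIH1, TRIM21 and TRIM22) and 4 were lower (IFNAR1, IFI35, DDX60 and IFITM1), against 10.2% of all genes (5.66% higher and 4.53% lower). A further 3 passed in starved cells alone (IFIT5, OAS3 and SAMD9) and 4 after serum alone (IFNGR1, IFI27, PARP9 and USP18), and 2 passed only in the average (IFIT2 and UBE2L6). These labels do not show that the difference depended on serum: the test of that dependence called no member, as given further on. The shares of all genes were not counted for the shared sign, for calls at a single time or for calls in the average alone.

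Receptor chains moved in different directions. The type I receptor chain IFNAR1 read 8.44 and 8.35 in starved and 8.49 and 8.49 in serum-treated shControl cells, and 8.15 and 8.03 in starved and 8.18 and 8.23 in serum-treated shCDK8 cells. Every shCDK8 array was below every shControl array. The average difference was -0.30 ± 0.05 (SE), or 1.23-fold lower, with an adjusted p of 0.00186 from limma. Its partner IFNAR2, the chain that binds interferon most tightly, lay between 7.49 and 7.62 in shControl cells and between 7.64 and 7.69 in shCDK8 cells. These arrays did not overlap either, but lay the other way round, and the difference of 0.14 ± 0.05 did not pass (limma, adjusted p = 0.0605). All shCDK8 arrays lay above all shControl arrays in 10 members and below them in 8. Over all 18417 genes this was so in 2391 and 2298. The genes for the pair are on chromosome 21 with 1 protein-coding gene between them.

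IFNGR1, the ligand-binding chain of the interferon gamma receptor, read 8.62 and 8.32 in starved and 8.44 and 8.46 in serum-treated shControl cells, against 8.78 and 8.78, then 8.77 and 8.80, in shCDK8 cells. All shCDK8 arrays were above all shControl arrays, by 0.32 ± 0.07 on average (1.25-fold, adjusted p = 0.00564). IFNGR2, the signalling chain of that receptor and no member of the group, moved the same way: its shControl arrays lay between 8.58 and 8.65 and its shCDK8 arrays between 9.05 and 9.06, a difference of 0.45 ± 0.04 (1.37-fold, adjusted p = 5.99e-05). Both chains of the interferon gamma receptor were thus higher in shCDK8 cells.

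Of the 5 kinases and transcription factors, 1 passed on average (20%, near the 23.3% of all genes), and it was IRF9. IRF9 is the DNA-binding subunit of the complex that recognises ISREs and is itself an interferon-induced gene. Its starved arrays read 7.60 and 7.66 in shControl cells and 7.89 and 8.04 in shCDK8 cells; after serum they read 7.68 and 7.62, and 8.10 and 8.06. The line groups did not overlap, and the average difference was 0.38 ± 0.05 (1.30-fold, adjusted p = 0.000536). JAK1, the kinase used by both receptor types, ranged from 9.88 to 10.04 in shControl and from 9.90 to 10.00 in shCDK8 cells, and differed by -0.03 ± 0.05. TYK2, the kinase bound to IFNAR1, ranged from 8.28 to 8.37 and from 8.32 to 8.52, with a difference of 0.06 ± 0.06. The transcription factor IRF1, a direct STAT target, ranged from 6.95 to 7.10 and from 6.83 to 7.05 (-0.05 ± 0.06), and IRF7, which drives type I interferon genes, from 7.38 to 7.50 and from 7.37 to 7.55 (0.04 ± 0.05). The lines' arrays overlapped for each of these 4 genes, and adjusted p-values were between 0.497 and 0.779.

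The 3 sensors of RNA split. IFIH1, which recognises long double-stranded RNA, read 5.78 and 5.55 in starved and 5.71 and 5.69 in serum-treated shControl cells, and 6.04 and 6.01, then 6.19 and 6.02, in shCDK8 cells, with no overlap between the lines. It was 0.38 ± 0.06 higher on average (1.31-fold, adjusted p = 0.00165). DDX60, a helicase that assists such sensors, was lower instead: 6.72 and 6.56 in starved and 6.93 and 6.89 in serum-treated shControl cells, against 6.20 and 6.24, then 6.54 and 6.48, in shCDK8 cells. The lines did not overlap, and the highest shCDK8 array, after serum, lay just under the lowest shControl array, which was starved. The average difference was -0.41 ± 0.05 (1.33-fold lower, adjusted p = 0.000294). DHX58, a regulator of the same sensors, differed by -0.03 ± 0.05 and its arrays overlapped.

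**Figure D2:**
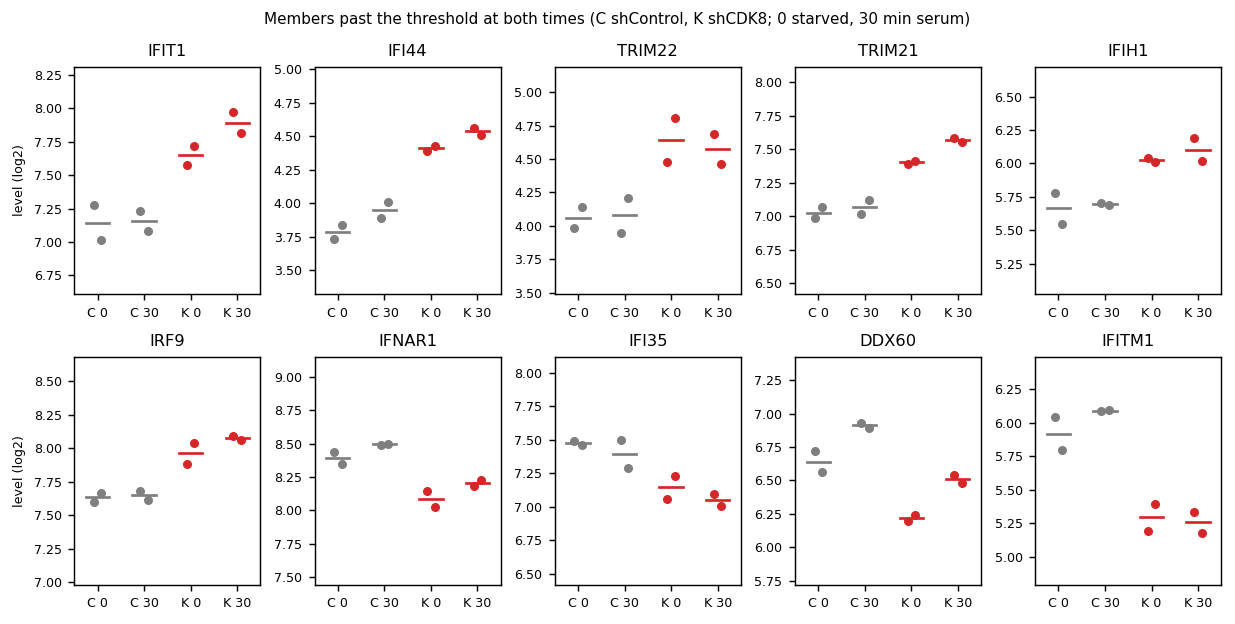
Log2 level on each array for the 10 genes that passed at both times; C is shControl and K shCDK8, 0 is starved and 30 is 30 min of serum, points are arrays and lines are group means, and each panel spans its own range. In the upper row and IRF9 the red shCDK8 points lie above the grey shControl points, and in IFNAR1, IFI35, DDX60 and IFITM1 below them.

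Among the 7 genes of ISG15 and ubiquitin enzymes, 3 were higher in shCDK8 cells and 1 lower on average (57.1%, beside 23.3% of all genes). TRIM21, a ubiquitin ligase that binds antibodies inside cells, read 6.98 and 7.06 in starved and 7.02 and 7.12 in serum-treated shControl cells, and 7.39 and 7.41, then 7.58 and 7.56, in shCDK8 cells. The lines stood clear of each other by more than any duplicate difference of this gene, with a difference of 0.44 ± 0.05 (1.36-fold, adjusted p = 0.00013). TRIM22, another antiviral ubiquitin ligase, was dim and more variable: 3.98 and 4.14, then 3.95 and 4.21, in shControl cells and 4.47 and 4.81, then 4.69 and 4.47, in shCDK8 cells. It was 0.54 ± 0.09 higher (1.45-fold, adjusted p = 0.00205), without overlap. Its mean over all arrays was below the 25th percentile of all genes (5.55), and RMA values carry no call of detection.

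USP18, the enzyme that removes ISG15 from proteins and restrains the type I receptor, read 7.09 and 6.84 in starved shControl and 7.07 and 6.99 in starved shCDK8 cells, where the arrays overlapped. After serum the shControl arrays read 6.88 and 6.68 and the shCDK8 arrays 7.27 and 7.23, a difference of 0.47 ± 0.10 (1.39-fold, adjusted p = 0.00984). The line difference after serum exceeded that in starved cells by 0.41 ± 0.14, the only member with an unadjusted p below 0.05 for that contrast (0.0151), and it did not pass adjustment over all genes (limma, adjusted p = 1.00). UBE2L6, the conjugating enzyme of ISG15, was lower in shCDK8 cells (8.23 to 8.27 starved and 8.12 and 8.24 after serum, against 8.33 to 8.35 and 8.35 to 8.52), by 0.17 on average (1.13-fold, adjusted p = 0.0429). The arrays did not overlap, and the difference was the smallest of the 19. ISG15 itself differed by -0.01 ± 0.11 between the lines. The ligases HERC5 (0.11 ± 0.06) and HERC6 (-0.10 ± 0.07) did not pass.

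Among the 15 antiviral effectors, 3 were higher and 2 lower in shCDK8 cells on average (33.3%, beside 23.3% of all genes; 13.3% lower, beside 11.3%). The IFIT family encodes proteins that bind foreign RNA, and its 4 measured members lie together on chromosome 10. IFIT1 read 7.27 and 7.01 in starved and 7.23 and 7.09 in serum-treated shControl cells, and 7.58 and 7.72, then 7.97 and 7.81, in shCDK8 cells. The groups of the lines did not overlap, and IFIT1 was 0.62 ± 0.07 higher on average (adjusted p = 0.00022), 0.50 ± 0.10 in starved cells and 0.73 ± 0.10 after serum. IFIT2 read 5.80 and 5.63, then 5.50 and 5.15, in shControl cells, and 6.01 and 6.11, then 5.60 and 5.89, in shCDK8 cells. It was 0.38 ± 0.09 higher (limma, adjusted p = 0.0134). The lines separated at each time but overlapped over both, since serum-treated arrays read lower in both lines. Such separation upwards at a single time was common, in 4493 of all 18417 genes in starved cells and 4772 after serum. IFIT5 read 7.53 and 7.36 in starved shControl against 7.69 and 7.77 in starved shCDK8 cells, and 7.63 and 7.71 against 7.74 and 7.81 after serum, 0.19 ± 0.05 higher on average (adjusted p = 0.0281). IFIT3, which pairs with IFIT1 as a protein, differed by 0.01 ± 0.06 and was dim. In all, 3 of 4 IFIT genes passed, all upwards, where 12% of all genes were higher. The calls of IFIT2 and IFIT5 depended on single arrays, as given further on.

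IFITM1, IFITM2 and IFITM3 encode membrane proteins that hinder viral fusion. IFITM1 read 6.04 and 5.80 in starved and 6.09 and 6.10 in serum-treated shControl cells, and 5.19 and 5.40, then 5.33 and 5.18, in shCDK8 cells. No array of one line reached the other, and the average difference of -0.73 ± 0.07 (1.66-fold lower, adjusted p = 6.55e-05) was the largest of the 44, at -0.62 ± 0.10 in starved cells and -0.83 ± 0.10 after serum. Its neighbours on chromosome 11 differed by 0.03 ± 0.05 (IFITM2) and -0.12 ± 0.05 (IFITM3, adjusted p = 0.11). The 3 coding sequences are closely similar, so signal may be shared between their probe sets and the values are uncertain to that extent.

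The oligoadenylate synthetases make the messenger that activates an antiviral ribonuclease, and OAS1, OAS2 and OAS3 are neighbours on chromosome 12. OAS3 read 8.09 and 8.22 in starved and 8.04 and 8.12 in serum-treated shControl cells, and 7.72 and 7.91, then 7.99 and 7.89, in shCDK8 cells. It was lower without overlap, by 0.24 on average (1.18-fold, adjusted p = 0.0173). OAS1 differed by 0.18 ± 0.06 (limma, adjusted p = 0.0525) and OAS2 by -0.05 ± 0.05, so neither passed, and the related OASL differed by 0.06 ± 0.08. OAS1 did pass with limma when dim genes were left out (adjusted p = 0.0357) and under cyclic loess (0.038). The dynamin-like GTPases MX1 (0.09 ± 0.06) and MX2 (0.05 ± 0.07), the exonuclease ISG20 (-0.05 ± 0.06) and the virus tether BST2 (-0.17 ± 0.07, adjusted p = 0.132) did not pass, and their arrays overlapped between the lines.

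Of the 11 other induced genes, 3 were higher and 2 lower on average (45.5%, beside 23.3% of all genes). IFI44, a cytoplasmic protein strongly induced by interferon, read 3.73 and 3.84 in starved and 3.89 and 4.01 in serum-treated shControl cells, and 4.39 and 4.43, then 4.57 and 4.51, in shCDK8 cells. The lines did not overlap, and the difference of 0.60 ± 0.05 had the smallest adjusted p of the members (2.28e-05). IFI44L, its neighbour on chromosome 1, differed by -0.06 ± 0.06. Both were dim, below the 25th percentile of all genes.

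PARP9, an ADP-ribosyltransferase partner that supports interferon signalling, read 7.94 and 7.79, then 7.99 and 7.86, in shControl cells and 8.09 and 8.14, then 8.37 and 8.34, in shCDK8 cells. It was 0.34 ± 0.05 higher on average (1.27-fold, adjusted p = 0.00133), whereas PARP14, 2 protein-coding genes away on chromosome 3, differed by -0.04 ± 0.04. IFI27, a mitochondrial and nuclear membrane protein, read 6.33 and 6.44, then 6.20 and 6.33, in shControl cells and 6.59 and 6.57, then 6.59 and 6.53, in shCDK8 cells, 0.24 ± 0.05 higher (adjusted p = 0.00717). Neither gene's lines overlapped.

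IFI35, which pairs with the signalling protein NMI, was lower in shCDK8 cells: 7.06 and 7.23, then 7.09 and 7.01, against 7.49 and 7.46, then 7.50 and 7.29, in shControl cells. Its difference was -0.34 ± 0.06 (1.26-fold lower, adjusted p = 0.0034). SAMD9, a restrictor of poxviruses and of cell growth, read 7.24 and 7.38, then 7.25 and 7.32, in shControl cells and 6.84 and 7.07, then 7.11 and 7.01, in shCDK8 cells, or -0.29 ± 0.06 (adjusted p = 0.00907). Both genes separated the lines on every array, while SAMD9L, the dim neighbour of SAMD9 on chromosome 7, differed by -0.06 ± 0.05. IFI6 (0.22 ± 0.07, adjusted p = 0.0552), XAF1 (0.01 ± 0.06) and SP100 (0.06 ± 0.06) did not pass.

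**Figure D3:**
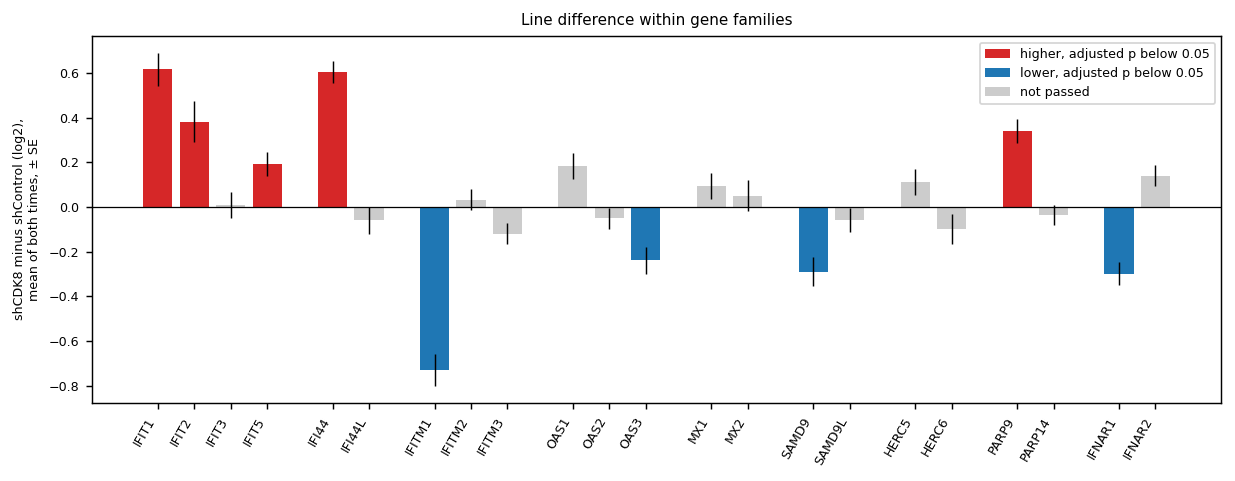
Log2 difference between shCDK8 and shControl cells, averaged over both times, for related or neighbouring genes; bars start at 0, error bars are standard errors, and red and blue bars passed an adjusted p below 0.05. Within several families some members passed and others did not, as with IFITM1 (-0.73) beside IFITM2 (0.03) and IFI44 (0.60) beside IFI44L (-0.06). No MX or HERC gene passed.

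With 2 arrays a group, single arrays decided several calls. Of the 19 average calls, 14 passed in each of 8 fits that left out 1 array; IFIT2, IFIT5, OAS3, USP18 and UBE2L6 did not. IFIT2 was lost without starved shControl array 2 (adjusted p = 0.0538). IFIT5 was lost without serum shControl array 1 (0.0995), starved shControl array 2 (0.0906), starved shCDK8 array 2 (0.0941) or serum shCDK8 array 2 (0.0874). OAS3 was lost without starved shCDK8 array 1 (0.0637), starved shControl array 2 (0.0631), serum shControl array 2 (0.0659) or serum shCDK8 array 2 (0.0623). USP18 was lost without array 1 of starved shCDK8 (0.0611) or serum shCDK8 (0.0523), or array 2 of starved shControl (0.0558) or serum shControl (0.0687). UBE2L6 was lost in 6 of the 8 fits, in all but those without serum shControl array 1 or serum shCDK8 array 2, with adjusted p from 0.0799 to 0.157. The changes kept their sign in each of these fits.

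At single times fewer members were called in several fits that left out an array. The counts that follow include members newly called there, which was IFIT2 in each count after serum. The count in starved cells was 8 without starved shCDK8 array 1 (7.97% of all genes), 7 without starved shCDK8 array 2 (8.08%) and 7 without starved shControl array 2 (8.62%); the count after serum was 9 without serum shControl array 1 (7.88%) and 8 without serum shCDK8 array 1 (9.21%). In starved cells 4 of the 13 calls held in all 8 such fits, and after serum 7 of the 14 did. IFI44, IFITM1, DDX60 and TRIM21 held at both times. IFIT1 and IRF9 held after serum alone, and PARP9, which passed at that time alone, held as well.

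The calls that ended are given here with their adjusted p. In starved cells, leaving out shControl array 1 ended those of IFNAR1 (0.104), IRF9 (0.087), TRIM22 (0.105), IFI35 (0.139) and SAMD9 (0.0504). Without starved shControl array 2 those of IFIT1 (0.0767), IFIT5 (0.2), OAS3 (0.156), IFIH1 (0.15), IFI35 (0.118) and SAMD9 (0.174) ended. Starved shCDK8 array 1 was needed for IFIH1 (0.116), IFIT5 (0.0858), OAS3 (0.175), IFI35 (0.214) and SAMD9 (0.191), and starved shCDK8 array 2 for IFNAR1 (0.127), IRF9 (0.116), IFIH1 (0.0909), TRIM22 (0.118), IFIT1 (0.0825) and IFIT5 (0.181). The starved call of IFIT5 also ended without either serum array of shControl cells (0.0533). Calls after serum ended without serum shControl array 1 for IFNAR1 (0.107), IFNGR1 (0.16), IFIH1 (0.0687), TRIM22 (0.195), IFI27 (0.174) and IFI35 (0.199), and without serum shControl array 2 for IFNAR1 (0.11), IFNGR1 (0.142), IFIH1 (0.0818) and USP18 (0.0854). Without serum shCDK8 array 1 they ended for IFNAR1 (0.116), IFNGR1 (0.121), IFIH1 (0.0998), TRIM22 (0.175), USP18 (0.058), IFI27 (0.119) and IFI35 (0.0667), and without serum shCDK8 array 2 for IFNAR1 (0.0665), IFNGR1 (0.151), IFI27 (0.0683) and IFI35 (0.146). That of IFNGR1 ended without either starved shCDK8 array too (0.0608). SAMD9, IFNAR1 and the other genes named here kept the sign of their change in each case.

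Few members passed the threshold for a change after 30 min of serum. In shControl cells 0 of 44 passed with limma (6 at an unadjusted p below 0.05), where 0.462% of all genes did. In shCDK8 cells 0 passed (9 at an unadjusted p below 0.05), against 0.255% of all genes. Of all 18417 genes, 1662 in shControl and 1766 in shCDK8 cells had an unadjusted p below 0.05 with limma. The average over both lines called 2 members (4.55%), both higher, ISG15 and DDX60, against 0.76% of all genes (0.684% higher). The members' median serum change was 0.01 in shControl and 0.04 in shCDK8 cells, beside -0.01 in each line for all genes. In shCDK8 cells the serum arrays lay above the starved arrays in 17 members and below them in 5. For all 18417 genes these counts were 3516 and 4081. In shControl cells they were 11 and 5 members, and 2980 and 4323 of all genes.

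ISG15, a ubiquitin-like protein that is conjugated to newly made proteins, had the largest serum change. It read 8.004 and 7.68 in starved shControl cells and 8.89 and 8.41 after serum, a change of 0.81 ± 0.15 (1.75-fold) whose adjusted p was 0.0664. In shCDK8 cells it read 8.02 and 7.96 before and 8.54 and 8.43 after serum, a change of 0.50 ± 0.15 (adjusted p = 0.411). All 4 serum arrays lay above all 4 starved arrays, as in 374 of all 18417 genes. Over both lines the change was 0.65 ± 0.11 (limma, adjusted p = 0.0223). The shControl change fell on either side of the threshold: it passed when the variance prior followed intensity (adjusted p = 0.00277), with dim genes left out (0.0486), with the replicate number as a block (0.0191) and without serum shControl array 2 (0.0141). The average was lost without starved shCDK8 array 1 (0.0943) or 2 (0.0873), serum shCDK8 array 1 (0.0774) or 2 (0.0741), or starved shControl array 2 (0.101).

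DDX60 changed by 0.27 in shControl and by 0.29 in shCDK8 cells, and by 0.28 ± 0.05 over both (adjusted p = 0.0437). The starved and serum arrays separated within each line, by the values given above, and overlapped across lines. Separation upwards within a line was common, in 2980 of all 18417 genes in shControl and 3516 in shCDK8 cells. This call was lost in 7 of 8 fits that left out an array, in all but that without starved shControl array 1, with adjusted p from 0.107 to 0.193, and with the replicate block (0.0627). PARP14 was 0.21 ± 0.04 higher after serum without passing (adjusted p = 0.0833): it read 8.14 and 8.13, then 8.29 and 8.25, in shControl cells and 8.04 and 7.998, then 8.34 and 8.29, in shCDK8 cells. IFIT2 read lower after serum in both lines, by -0.35 ± 0.09, and did not pass either (adjusted p = 0.167).

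**Figure D4:**
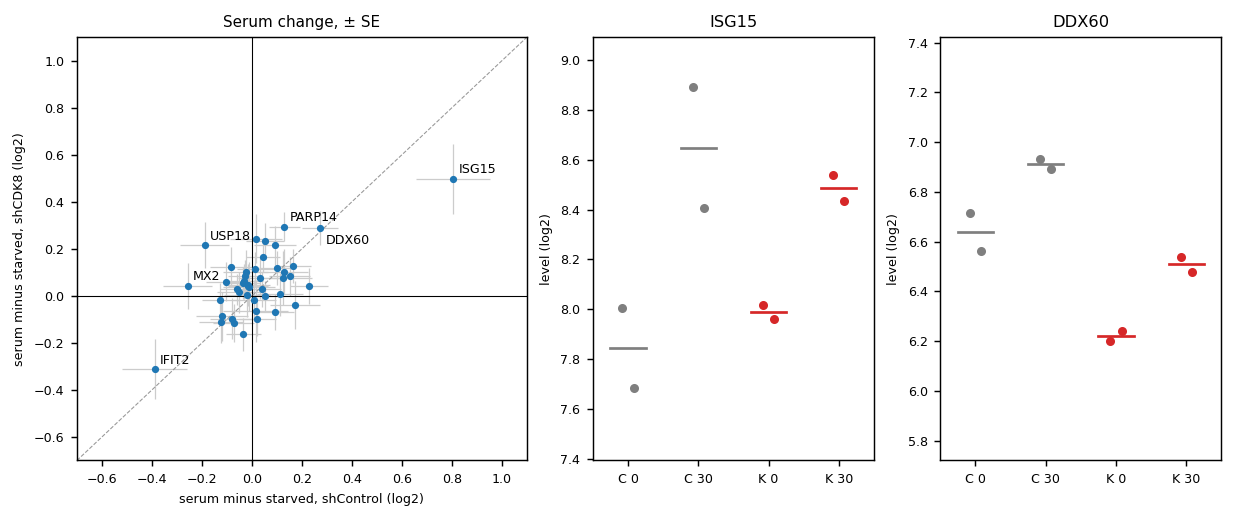
Left, log2 change after 30 min of serum in shControl (x) and shCDK8 cells (y) for the 44 genes, with standard errors and a dashed line of equal change; right, ISG15 and DDX60 on each array (C shControl, K shCDK8, 0 starved, 30 serum; lines are group means). Most genes lie close to 0, ISG15 lies at 0.81 and 0.50, and its serum arrays are all above its starved arrays.

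Whether the response to serum differed between the lines was tested as the difference of the 2 changes. No member passed with limma (0 of 44, and 1 at an unadjusted p below 0.05, USP18), and 0% of all genes passed (703 at an unadjusted p below 0.05). For ISG15 the response in shCDK8 cells was -0.31 ± 0.21 relative to that in shControl cells. With standard errors of this size, the design could not show small differences in response.

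Other genes of the pathway were set beside the members, from a list of 59 measured genes that are not members. This list too was chosen with earlier results of these data known. On average 12 were higher and 9 lower in shCDK8 cells (35.6%, against 23.3% of all genes). In starved cells 9 passed (15.3%, against 13.4% of all genes) and after serum 12 (20.3%, against 14.2%). None passed in a serum contrast with limma. At an unadjusted p below 0.05 limma gave 3 in shControl, 2 in shCDK8 cells and 7 in the average. Of all 18417 genes, 1662, 1766 and 2678 were below it. Among induced genes SLFN5, a Schlafen family member, was 0.60 ± 0.06 higher (adjusted p = 6.76e-05), and EIF2AK2, the kinase that stops translation on double-stranded RNA, 0.37 ± 0.05 higher (adjusted p = 0.000704). APOBEC3G, a DNA-editing enzyme that restricts retroviruses, was 0.42 ± 0.09 higher (adjusted p = 0.00718). CD274, the immune checkpoint ligand, was 0.31 lower (adjusted p = 0.00126). Of the negative regulators, the phosphatase PTPN1 was 0.41 ± 0.05 higher (adjusted p = 0.000208), while PTPN2 (-0.37 ± 0.07, adjusted p = 0.00448) and PTPN6 (-0.30 ± 0.05, adjusted p = 0.00332) were lower. The factor IRF2, which binds elements like those of IRF1, was 0.28 lower (adjusted p = 0.00165). These genes, like the members, moved in both directions; 12 of the 21 calls, the 8 just named and IFNGR2 among them, held in every fit that left out an array.

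Type I and type II interferon genes themselves were dim. Over the 8 arrays IFNB1 lay between 3.35 and 3.86, IFNG between 3.65 and 4.01 and IFNA2 between 3.61 and 3.80, below the 25th percentile of all genes, and none passed a line comparison. Among type III interferons, the probe sets of the closely similar genes IFNL2 and IFNL3 read 6.61 and 8.08 on average and did not pass either. Of 7 measured epithelial markers 5 exceeded the median of all genes, with EPCAM between 11.68 and 11.83. VIL1 (5.61 on average) and CEACAM5 (5.04) did not, and CEACAM5 was below the 25th percentile. The leukocyte marker PTPRC, which defines blood cells, lay between 3.53 and 3.66, and of 7 measured leukocyte markers 1 (CD68) exceeded the median of all genes; the mean of the 7 lay between 5.39 and 5.56 in shControl arrays and between 5.44 and 5.50 in shCDK8 arrays. Of these markers LYZ was 0.24 ± 0.06 higher in shCDK8 cells (adjusted p = 0.0144). With serum, the collagen gene COL1A1, a fibroblast marker, was 0.34 higher over both lines (adjusted p = 0.0292), the only one of 7 endothelial and fibroblast markers to pass. The 3 measured markers of plasmacytoid dendritic cells, the main producers of type I interferon in blood, were all below the 25th percentile. Among epithelial genes, KRT8, KRT18 and CDH1 were higher and KRT19 lower in shCDK8 cells, by 0.23 to 0.56 in size; the part of these markers in the results above was not tested.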

How the data were processed

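Total RNA was measured on 8 Affymetrix arrays, 1 per sample, and the labels gave the groups. The authors deposited log2 values per probe set from RMA, which corrects background, equalizes the arrays' distributions and summarizes probes, per the submitters' processing notes. Neither the RMA version, the genome build nor joint normalization of the arrays is stated (not given in the sources used here). Of 33297 probe sets, 19460 were paired with exactly 1 gene, 1754 with several and 12083 were not listed in the annotation; Entrez identifiers of 19429 of those with 1 gene were found in a RefSeq gene table. A gene's probe set with the highest mean was used (18417 genes), and 2 probe sets that members share with other genes were left out. A model with 4 group means was fitted to all arrays with limma 3.58.1 in R 4.3.3 (4 residual and 5.49 prior degrees of freedom), with 7 contrasts and two-sided p-values adjusted over all genes by the Benjamini-Hochberg method in each contrast; higher and lower mean an adjusted p below 0.05. RMA gives no detection call and the number of arrays limits precision. The procedure was tested on simulated data for the starved line comparison, with 50 genes shifted at each size. It recovered 28% of log2 shifts of 0.3, 60% of those of 0.5 and 100% of those of 1. Of its calls 4% were false. The members and lists were chosen with earlier results of these data known. All members were named; values on each array were given for members that passed and for the signalling genes. Promoter windows were given for members that passed at both times and held the response element before the start site. Alternatives were a variance prior that followed intensity, dim genes left out (below the 25th percentile), a replicate block, only the arrays compared, cyclic loess, median centring, averaging a gene's probe sets, a 1.5-fold minimum change and each array left out; the lone array of a group then borrowed its spread from the other groups. Figures were drawn with matplotlib 3.10.9.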

Additional observations from a re-analysis of the deposited data

How the results depend on the processing

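None of the 48 calls of members in the line comparisons, the line average and the serum average changed sign under any alternative that was run. All 48 held under cyclic loess, the intensity trend and averaged probe sets, 47 under median centring, 42 of the 42 still tested without dim genes, 45 with the replicate block and 23 of 27 with the compared arrays alone; without 1 array 35 to 42 held. A minimum change of 1.5-fold left 0 members in starved cells, after serum, in the line average and in the serum average. Some members that had not passed did so under an alternative. In the line average these were OAS1 and IFI6 (cyclic loess, dim genes left out), IFNAR2 (dim genes left out) and IFITM3 (intensity trend). At single times they included IFNGR1, PARP9, IFIT2 and UBE2L6. In the serum average PARP14 passed with the intensity trend (limma, adjusted p = 0.0321). The members called in shControl cells after serum numbered 1 (ISG15) in place of 0 with the intensity trend, with the replicate block and with dim genes left out, and 0 to 1 without single arrays. The serum average called 1 member (ISG15) with the replicate block, and 0 to 2 without single arrays. Without single arrays the line comparison called 7 to 13 members in starved cells, 8 to 14 after serum and 14 to 21 in the average. Duplicates share numbers across groups, and the deviations of same-numbered arrays correlated between -0.19 and 0.13, so the numbers do not show a pairing; with the replicate block 11 members were called in starved cells, 14 after serum and 19 in the average. For starved cells a crossed block, chosen after seeing the data, called 14. Of the 21 calls of other pathway genes, 9 were lost without at least 1 array, among them TLR3, TBK1, SOCS1 and GBP2. Depth does not apply to arrays; signal over background limits the dim members, 9 of which had means below the 25th percentile. The cause of the lost calls was not tested.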
